A study of Mus musculus with 12 samples.

Results

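The 8 forkhead genes described here are Foxc1, Foxc2, Foxd1, Foxd2, Foxf1, Foxf2, Foxp1 and Foxp2, transcription factor genes read out in mesenchyme of the developing upper face of the mouse. The genes were taken as a list of symbols and found in the deposited tables through the Ensembl gene identifier, as 8 of 53392 genes listed there. The genes were selected on measured values of these same libraries, and since it is not recorded which, every level and every difference between the 4 groups is treated as used. Levels and differences of the 8 genes are therefore given as a description, with their spread, and nothing is supported by a test on them. All 8 passed the filter on low counts in each of the 3 comparisons below. The annotation used for names and positions (GENCODE release M21, build GRCm38) holds 36 other forkhead genes.

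The series asks which RNAs depend on signalling by PDGFRα, a receptor tyrosine kinase encoded by Pdgfra, and on Srsf3, a serine/arginine-rich RNA-binding protein that takes part in splicing. Palatal shelves, the outgrowths that form the secondary palate, came from E13.5 embryos (E for embryonic day) that were Pdgfra+/+ (wild type) or PdgfraPI3K/PI3K, homozygous for an altered allele of the receptor. Maxillary processes, the earlier facial swellings from which the shelves grow, came from E11.5 embryos that were Srsf3fl/fl;Wnt1-Cre+/+ (control) or Srsf3fl/fl;Wnt1-Cre+/Tg (labelled cKO, for conditional knockout). Each of the 4 groups has 3 libraries, called biological replicates by the submitters, so there are 12 libraries of polyadenylated RNA. All embryos had the 129S4 strain background, and both maxillary groups carry the floxed Srsf3 allele on each chromosome and differ by the Wnt1-Cre transgene. Presence of the transgene and deletion of Srsf3 cannot be told apart between these groups. Wnt1-Cre acts in neural crest cells and their descendants, so cells of other origin in the same tissue keep the floxed allele. The labels do not give the number of embryos in a library or their litters, and the intervals below measure only the spread between these samples.

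Forkhead proteins bind DNA through a winged-helix domain, and most act as transcription factors that open or repress regulatory DNA in mesoderm and neural crest. Foxc1 and Foxc2 act in the eye, skull vault and vessels, and Foxd1 is best known from the stroma of the kidney and the optic region. Foxf1 and Foxf2 lie downstream of hedgehog signals sent from epithelium to mesenchyme, and loss of Foxf2 in the mouse causes cleft palate. Foxp1 and Foxp2 encode repressors that form dimers with each other and with the product of Foxp4.

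Promoter sequences are shown for 4 genes, because each carries a contrast described below: Foxd1 and Foxd2 are a pair of related genes with unlike behaviour, and Foxc1 and Foxf2 are neighbours on chromosome 13 with unlike behaviour. Each is the 250 bases before the start of the RefSeq transcript (RefSeq table of build GRCm38.p6), read 5′ to 3′ on the strand of the gene, with CCAAT-box letters (CCAAT, or ATTGG on the other strand) in capitals. The regions are chr13:98353995-98354244 (plus strand) for Foxd1, chr4:114908899-114909148 (minus strand) for Foxd2, chr13:31806396-31806645 (plus strand) for Foxc1 and chr13:31625566-31625815 (plus strand) for Foxf2.
Foxd1: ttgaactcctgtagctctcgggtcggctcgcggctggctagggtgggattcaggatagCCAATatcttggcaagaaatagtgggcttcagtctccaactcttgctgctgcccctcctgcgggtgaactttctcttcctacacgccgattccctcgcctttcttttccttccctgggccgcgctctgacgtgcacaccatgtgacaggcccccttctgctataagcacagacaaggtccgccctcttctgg
Foxd2: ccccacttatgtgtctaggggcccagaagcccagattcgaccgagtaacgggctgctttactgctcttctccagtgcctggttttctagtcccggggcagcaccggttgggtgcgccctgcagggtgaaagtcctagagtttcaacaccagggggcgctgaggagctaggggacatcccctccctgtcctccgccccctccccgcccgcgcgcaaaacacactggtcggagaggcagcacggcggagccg
Foxc1: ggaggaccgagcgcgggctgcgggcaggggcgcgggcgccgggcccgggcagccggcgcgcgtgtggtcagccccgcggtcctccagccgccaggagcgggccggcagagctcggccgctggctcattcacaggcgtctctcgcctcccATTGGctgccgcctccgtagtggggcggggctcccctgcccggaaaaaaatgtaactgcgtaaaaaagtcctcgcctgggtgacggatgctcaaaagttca
Foxf2: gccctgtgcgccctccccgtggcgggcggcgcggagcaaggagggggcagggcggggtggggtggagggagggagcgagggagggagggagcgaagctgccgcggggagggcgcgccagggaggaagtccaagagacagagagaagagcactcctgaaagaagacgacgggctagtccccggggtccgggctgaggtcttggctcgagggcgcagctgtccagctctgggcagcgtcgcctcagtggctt
The Foxd1 stretch has 57.2% G or C and 12 CpG dinucleotides, and the Foxd2 stretch has 64.4% and 16. Those of Foxc1 (70.8%, 29 CpG) and Foxf2 (71.6%, 21 CpG) are richer still, while the median over 32851 promoters is 52.4% with 6 CpG. A CCAAT match starts 192 bases before the Foxd1 start and 101 bases before the Foxc1 start, and such a match is found in 33.8% of all promoters of this length. The stretches of Foxd2 and Foxf2 hold none. Of the Foxp1 promoters, not printed here, the one at chr6:99028299-99028548 (minus strand) holds 1 match, 36 bases before its start, and the others hold none. Foxp1 did not separate the maxillary groups (below), and any part of the CCAAT box in the levels was not tested. Neither strand of the 4 stretches holds the forkhead core TGTTTAC (in 3.17% of all promoters), the GLI-type motif TGGGTGGTC (0.225%) or TATAAA (12.4%), which says only that these letters are absent from these windows.

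The libraries held 30509338 to 37406960 estimated counts (palatal shelf) or 15932541 to 27887654 (maxillary process). Levels are given in TPM, an abundance per unit of transcript length within a library, so that genes can be ranked within a library. Srsf3 totals did not separate the maxillary groups (470, 407 and 416 TPM in the controls against 320, 441 and 407 TPM), so that these tables of gene totals do not check the deletion, and the libraries are called labelled cKO throughout. Facial mesenchyme markers such as Prrx1 and Twist1 were high in all 12 libraries (at least 232 and 329 TPM), and the 24 markers summed to 1853 TPM in labelled cKO 1 against 2856 and 2873 TPM in labelled cKO 2 and 3 and 3302 to 3492 TPM in the controls. In that same library 11 endothelial markers summed to 636 TPM, against 380 and 336 TPM in the other labelled cKO libraries and 264 to 273 TPM in the controls. Ectoderm was digested away with trypsin per the labels, and its markers summed to 412 to 970 TPM in the palatal libraries and to 1.83 to 19.4 TPM in the maxillary ones, with the keratin gene Krt5 at 0 in 2 of the 3 controls. The part these differences in cell content play in the results was not tested. In tissue samples of this kind, fewer cells of a type and less RNA per cell cannot be told apart.

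**Figure D1:**
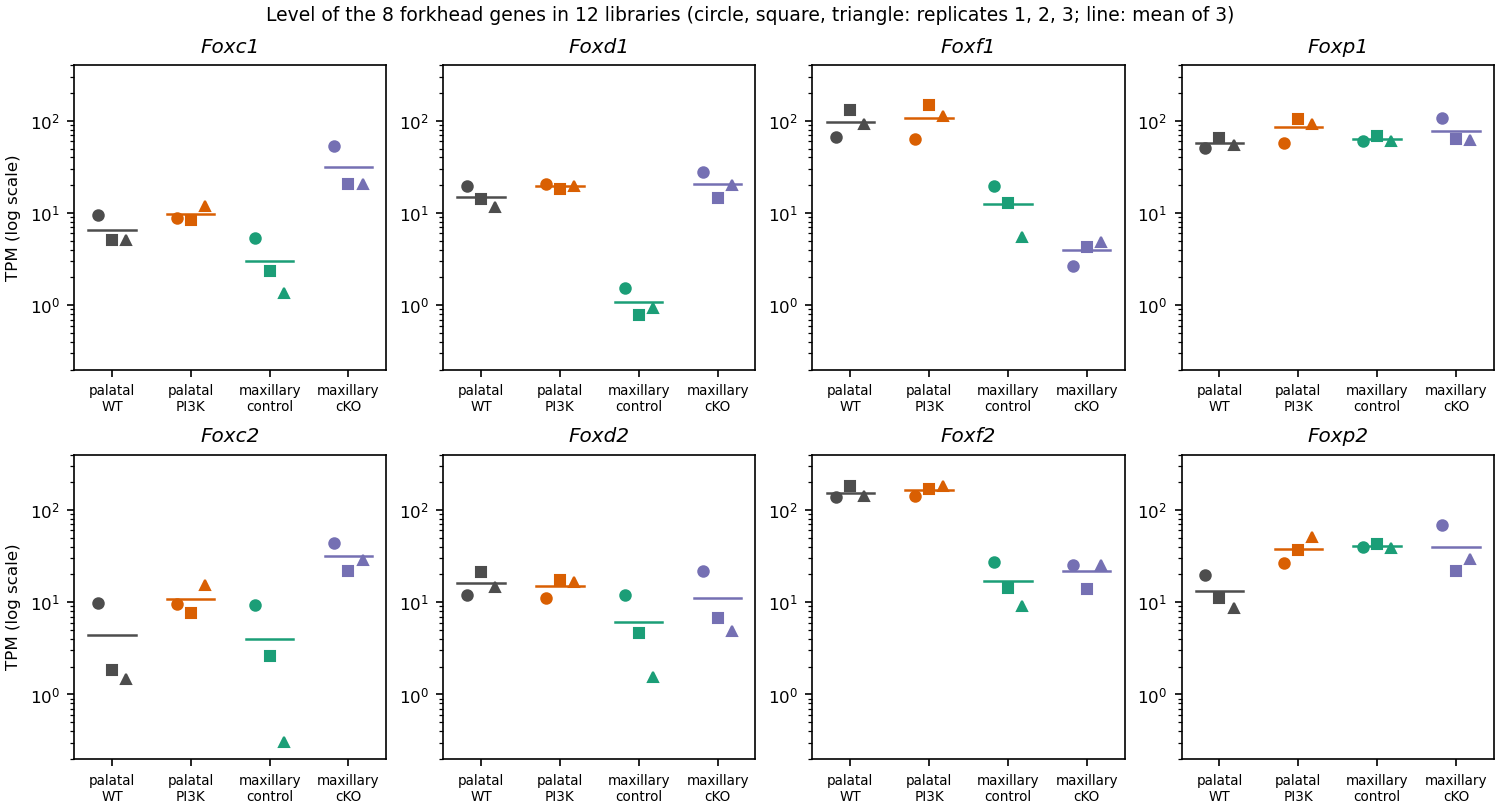
Level of each of the 8 genes in each of the 12 libraries (TPM, log axis), 1 panel per gene and 4 groups per panel; symbols are replicates 1, 2 and 3 and the line is the mean of 3. Foxc1, Foxc2 and Foxd1 lie higher in the 3 labelled cKO libraries than in the 3 maxillary controls, Foxf1 lies lower, and Foxf1 and Foxf2 lie far higher in the palatal shelf.

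In the wild-type palatal shelf Foxf2 had the highest level of the 8 genes, at 154 ± 22.7 TPM (mean ± SD, n = 3), followed by Foxf1 at 97.0 ± 31.7 TPM and Foxp1 at 56.9 ± 7.69 TPM. These 3 ranges did not overlap one another, and all lay above the other members. Below them, Foxd2 (16.0 TPM), Foxd1 (15.0 TPM), Foxp2 (13.3 TPM), Foxc1 (6.59 TPM) and Foxc2 (4.40 TPM) formed a series in which each overlapped its neighbour. In the PdgfraPI3K/PI3K shelves the top 3 kept this order, with overlapping ranges, and Foxp2 came next at 37.9 ± 12.01 TPM, clear of its neighbours on both sides. The maxillary controls had another order: Foxp1 came first at 62.9 ± 4.81 TPM, Foxp2 next at 40.6 ± 1.73 TPM, and Foxf2 after it at 16.8 ± 9.26 TPM, each apart from the one above. From Foxf2 down through Foxf1, Foxd2, Foxc2 and Foxc1 to Foxd1, the last at 1.09 ± 0.402 TPM, every neighbour overlapped. In the labelled cKO libraries the first 7 genes ran from Foxp1 (77.5 TPM) through Foxp2, Foxc1, Foxc2, Foxf2 and Foxd1 to Foxd2 (11.2 TPM) without a gap, and Foxf1 came last at 3.93 ± 1.12 TPM, below the range of Foxd2.

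The replicates of a group did not vary gene by gene alone. Maxillary control 1 was the highest control for 6 of the 8 genes (Foxc1, Foxc2, Foxd1, Foxd2, Foxf1 and Foxf2), and control 3 was the lowest for Foxc1, Foxc2, Foxd2, Foxf1, Foxf2 and Foxp2. Control 3 also had the highest sums of neuron and glia markers (284 TPM, other controls 162 and 173 TPM) and forebrain markers (79.3 TPM, others 14.9 and 16.1 TPM). Labelled cKO 1, the library with low mesenchyme and high endothelium marker sums, was the highest of its group for Foxc1, Foxc2, Foxd1, Foxd2, Foxp1 and Foxp2. In the wild-type palatal shelf, replicate 1 was highest for Foxc1, Foxc2, Foxd1 and Foxp2 and lowest for the other 4 genes.

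Set against all genes, the 8 counts read as follows, and since the genes were chosen with these comparisons known, nothing is read from them. For the PI3K allele in the palatal shelf 0 of the 8 genes and 0 of all 16525 genes tested (0%) passed a false discovery rate (FDR) of 0.05 in edgeR, 2 of the 8 and 354 of all genes (2.14%) had an unadjusted p under 0.05, and DESeq2 called 1 of the 8 and 4 of all genes. The libraries of the groups did not overlap for 1 of the 8 genes, which was higher, against 6.23% of all (3.12% higher, 3.11% lower). The median log2 fold change was 0.46 over the 8 genes and -0.0076 over all. Between the maxillary groups 1 of the 8 genes passed FDR 0.05, in the higher direction, against 12 of 14254 genes tested (0.0842%, of which 0.0561% higher and 0.0281% lower). An unadjusted p under 0.05 was found for 4 of the 8 and for 1746 of all genes (12.2%, the share to set beside each such count for the maxillary groups below), and DESeq2 called 3 of the 8 and 382 of all genes. Groups did not overlap for 3 of the 8 that were higher and 1 that was lower, against 18.1% of all (8.76% higher, 9.37% lower). There, 7 of the 8 values were above 0, with a median of 0.66 against 0.0041 over all genes. Without labelled cKO 1 that became 4 above and 4 below 0, with a median of 0.13. Between the wild-type shelf and the maxillary controls 3 of the 8 genes were called higher and 2 lower in the shelf, against 27.1% and 23.4% of 15752 genes tested (50.6% together), and groups did not overlap for the same 5 genes, against 62.1% of all (33.2% higher, 28.9% lower).

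The Foxc genes were higher in the labelled cKO maxillary processes than in the controls, by 10.98-fold and 8.09-fold. Foxc1 (chr13:31806633-31812476, plus strand) was at 5.32, 2.33 and 1.35 TPM in the controls and at 53.9, 20.6 and 20.7 TPM in the labelled cKO libraries. The lowest labelled cKO value lay well above the highest control, and the log2 fold change of normalised counts (edgeR) was 3.46 ± 0.61 (SE, 95% interval 2.04 to 4.87). It was 2.83 without labelled cKO 1 and 4.18 without control 1. Foxc2 (chr8:121116171-121118895, plus strand) was at 9.24, 2.59 and 0.304 TPM in the controls, the last resting on 10 counts, and at 43.8, 21.8 and 29.0 TPM in the labelled cKO libraries. Its groups did not overlap either, although the controls spread widely among themselves, and the log2 fold change was 3.02 ± 0.87 (SE, 95% interval 0.98 to 5.06). Leaving out control 1 gave 4.54 and leaving out control 3 gave 2.44. Foxc2 did not pass FDR 0.05 here (edgeR, adjusted p = 0.292), and did so in 0 of 15 alternatives.

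Neither Foxc gene separated the palatal genotypes. Foxc1 was at 9.53, 5.13 and 5.12 TPM in wild type and at 8.94, 8.30 and 11.9 TPM in PdgfraPI3K/PI3K libraries, a log2 fold change of 0.55 ± 0.27 (SE, 95% interval -0.08 to 1.19). Foxc2 was at 9.90, 1.84 and 1.46 TPM in wild type and at 9.58, 7.66 and 15.6 TPM in PdgfraPI3K/PI3K. Wild-type replicate 1 alone brought the ranges of both genes into overlap: the log2 fold change of Foxc2 was 1.30 ± 0.72 (SE, 95% interval -0.38 to 2.99) with it and 2.74 without it. Summed over both genes, the Foxc level was 10.99 ± 7.31 TPM in wild-type and 20.6 ± 6.02 TPM in PdgfraPI3K/PI3K shelves (SD, n = 3), and 7.04 ± 6.71 TPM in control and 63.3 ± 30.0 TPM in labelled cKO processes (SD, n = 3). Foxc1 made up 66.8% ± 15.5 and 47.8% ± 4.39 of it in the shelves and 55.1% ± 23.5 and 48.5% ± 6.75 in the maxillary groups (SD, n = 3), and the shares overlapped within each tissue.

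Foxd1 rose in the labelled cKO maxillary processes and its relative Foxd2 did not separate the groups. Foxd1 (chr13:98354242-98359305, plus strand) was at 1.55, 0.794 and 0.929 TPM in the controls, from 76, 42 and 59 counts, and at 27.6, 14.7 and 20.1 TPM in the labelled cKO libraries. The log2 fold change was 4.31 ± 0.33 (SE, 95% interval 3.53 to 5.09), a 19.8-fold difference, and every labelled cKO value was above every control. Among the 8 genes this was the one past FDR 0.05 (edgeR, adjusted p = 0.0078). The call was lost without control 2 (adjusted p = 0.087) or control 3 (adjusted p = 0.0512), with fold changes of 4.14 and 4.18, and over all alternatives the adjusted p ran from 3.43e-48 to 0.087. Foxd2 (chr4:114906282-114908873, minus strand) was at 11.999, 4.63 and 1.54 TPM in the controls and at 21.9, 6.80 and 4.92 TPM in the labelled cKO libraries. The 2 sets overlapped, and the log2 fold change of 0.93 ± 0.79 (SE, 95% interval -0.92 to 2.78) came to -0.0048 without labelled cKO 1 and to 1.92 without control 1.

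The make-up of the Foxd pair differed accordingly. Foxd1 was 11.4%, 14.6% and 37.6% of the summed Foxd TPM in the maxillary controls and 55.8%, 68.4% and 80.3% in the labelled cKO libraries, so that the ranges lay apart. The palatal share was 48.6% ± 11.7 (SD, n = 3) in wild type and 56.6% ± 7.08 (SD, n = 3) in PdgfraPI3K/PI3K. There, Foxd1 was at 19.5, 14.1 and 11.6 TPM in wild type and at 20.4, 18.3 and 19.7 TPM in PdgfraPI3K/PI3K, with a log2 fold change of 0.37 ± 0.19 (SE, 95% interval -0.08 to 0.82). Foxd2 was at 12.05, 21.4 and 14.5 TPM in wild type and at 11.2, 17.6 and 16.6 TPM in PdgfraPI3K/PI3K, and its log2 fold change of -0.08 ± 0.25 (SE, 95% interval -0.67 to 0.51) changed sign without wild type 2 (0.20) or PdgfraPI3K/PI3K 1 (0.11). Neither gene's genotypes were apart.

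The labelled cKO level of Foxd1 (20.8 ± 6.48 TPM) lay beside that of the wild-type palatal shelf (15.0 ± 4.08 TPM). Stage, tissue, Srsf3 allele, the Wnt1-Cre transgene and sequencing lane (L002 for palatal and L004 for maxillary libraries in the labels) all differ between these groups. The 2 tissues were deposited as separate tables.

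Foxf1 was lower in the labelled cKO maxillary processes while Foxf2 did not separate the groups. Foxf1 (chr8:121084386-121088144, plus strand) was at 19.6, 13.0 and 5.44 TPM in the controls and at 2.66, 4.33 and 4.80 TPM in the labelled cKO libraries. The gap between the lowest control and the highest labelled cKO library was narrow, and the log2 fold change was -1.65 ± 0.47 (SE, 95% interval -2.74 to -0.56), or 0.319 times the control level. Foxf2 (chr13:31625816-31631403, plus strand) was at 27.1, 14.4 and 9.02 TPM in the controls and at 25.2, 14.0 and 25.6 TPM in the labelled cKO libraries, a log2 fold change of 0.40 ± 0.42 (SE, 95% interval -0.57 to 1.37). Each labelled cKO value of Foxf2 fell within the control range, so the pair parted: Foxf1 was 41.9%, 47.4% and 37.6% of the summed Foxf TPM in the controls and 9.55%, 23.7% and 15.8% in the labelled cKO libraries. The summed Foxf level itself was 29.5 ± 16.2 TPM in the controls and 25.5 ± 6.41 TPM in the labelled cKO libraries.

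Neither Foxf gene separated the palatal genotypes. Foxf1 was at 67.4, 130 and 93.1 TPM in wild type and at 63.0, 147 and 113 TPM in PdgfraPI3K/PI3K, and the log2 fold change was 0.15 ± 0.34 (SE, 95% interval -0.64 to 0.94). It changed sign without wild type 1 (-0.03) or PdgfraPI3K/PI3K 2 (-0.16). Foxf2 was at 139, 181 and 143 TPM in wild type and at 140, 170 and 182 TPM in PdgfraPI3K/PI3K, with a log2 fold change of 0.09 ± 0.14 (SE, 95% interval -0.23 to 0.41). The share of Foxf1 in the pair was 38.0% ± 4.82 (SD, n = 3) in wild type and 38.5% ± 7.67 (SD, n = 3) in PdgfraPI3K/PI3K.

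**Figure D2:**
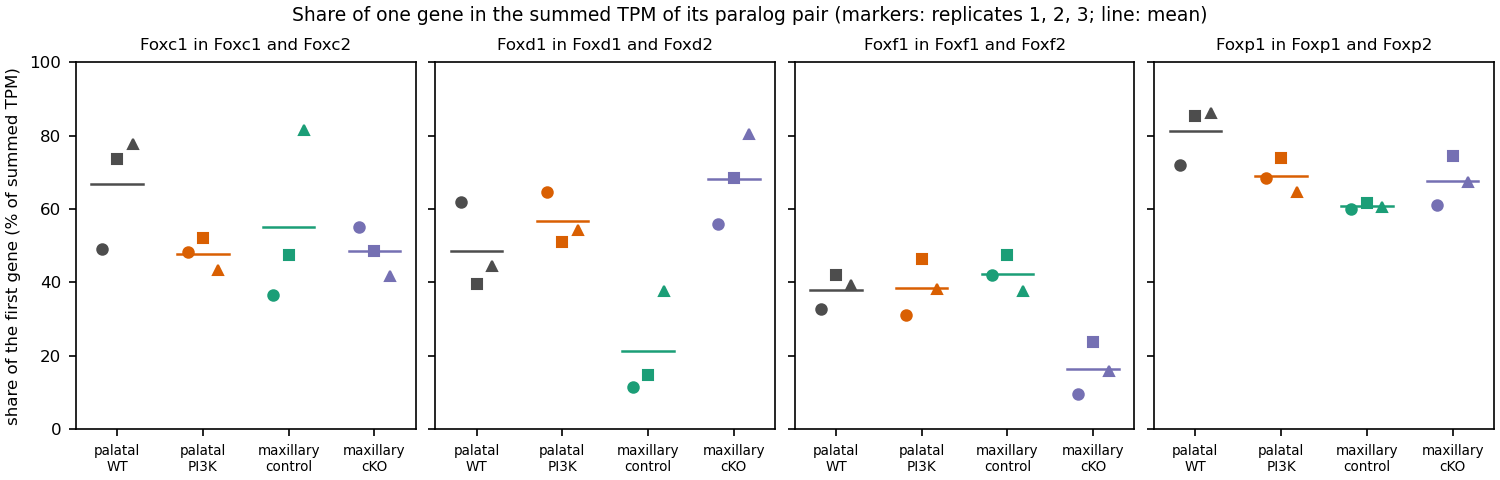
Share of the first-named gene in the summed TPM of its pair (percent, linear axis from 0 to 100) in each library; symbols are replicates 1, 2 and 3 and the line is the mean. In the maxillary process the Foxd1 share was above the control range in all 3 labelled cKO libraries and the Foxf1 share below it, while the Foxc1 and Foxp1 shares of these groups overlapped.

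Foxp2 was higher in the PdgfraPI3K/PI3K palatal shelf, and was the one of the 8 genes whose palatal genotypes did not overlap. Foxp2 (chr6:14901349-15441977, plus strand) was at 19.9, 11.2 and 8.75 TPM in wild type and at 26.6, 36.7 and 50.5 TPM in PdgfraPI3K/PI3K. The log2 fold change was 1.56 ± 0.39 (SE, 95% interval 0.66 to 2.47), a 2.96-fold difference, and stayed between 1.33 and 2.14 when each library was left out. It did not pass the FDR threshold in edgeR (adjusted p = 1.00) but did in DESeq2 (adjusted p = 0.0269), and over all alternatives the adjusted p ran from 0.0269 to 1.00. Skeletal muscle markers were uneven in the same shelves, with sums of 62.9, 4.23 and 8.53 TPM in wild type and 251, 39.0 and 142 TPM in PdgfraPI3K/PI3K (all 8 tested had values above 0, median 2.56). Neuron and glia markers summed to 87.9 to 114 TPM in wild type and 101 to 157 TPM in PdgfraPI3K/PI3K, with 10 of 11 values above 0 and a median of 0.60. Their part in the Foxp2 difference was not tested. Foxp1 (chr6:98925338-99522721, minus strand) was at 50.8, 65.6 and 54.4 TPM in wild type and at 58.0, 104 and 92.1 TPM in PdgfraPI3K/PI3K, with a log2 fold change of 0.58 ± 0.19 (SE, 95% interval 0.13 to 1.03). Its interval left out 0, yet PdgfraPI3K/PI3K 1 lay within the wild-type range.

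Neither Foxp gene separated the maxillary groups. Foxp1 was at 59.9, 68.5 and 60.3 TPM in the controls and at 108, 63.3 and 61.2 TPM in the labelled cKO libraries, with a log2 fold change of 0.32 ± 0.23 (SE, 95% interval -0.23 to 0.86) that came to -0.026 without labelled cKO 1. Foxp2 was at 40.1, 42.6 and 39.2 TPM in the controls and at 69.2, 21.7 and 29.5 TPM in the labelled cKO libraries. Labelled cKO 1 was above and the other 2 were below all controls, so that the log2 fold change was 0.011 ± 0.40 (SE, 95% interval -0.93 to 0.96) with every library and -0.69 without labelled cKO 1. The controls agreed closely on the pair, with Foxp1 at 60.7% ± 0.893 (SD, n = 3) of the summed Foxp TPM, against 81.1% ± 8.01 (SD, n = 3) in the wild-type shelf and 69.0% ± 4.72 (SD, n = 3) in the PdgfraPI3K/PI3K shelf.

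**Figure D3:**
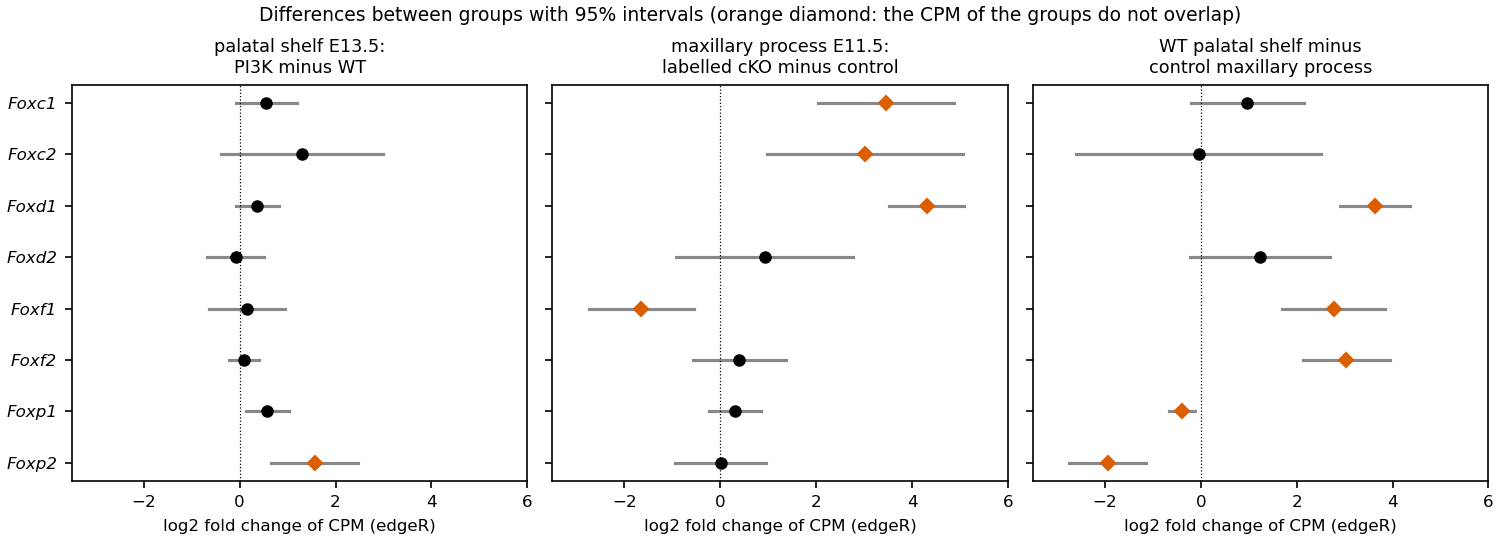
Log2 fold change of normalised counts (edgeR) with its 95% interval for the 8 genes in 3 comparisons; an orange diamond marks a gene whose libraries do not overlap between the groups. In the palatal shelf this holds for Foxp2 alone, in the maxillary process for Foxc1, Foxc2, Foxd1 and Foxf1, and between the tissues for Foxd1, Foxf1, Foxf2, Foxp1 and Foxp2.

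Between the tissues, the wild-type palatal shelf and the control maxillary process differed most in Foxd1, Foxf2 and Foxf1. This comparison shares its palatal libraries with the one of the PI3K allele and its maxillary libraries with the one between the maxillary groups. The log2 fold change, palatal minus maxillary, was 3.64 ± 0.31 (SE) for Foxd1, 3.04 ± 0.39 (SE) for Foxf2 and 2.78 ± 0.46 (SE) for Foxf1. In mean TPM that is 15.0 against 1.09, 154 against 16.8 and 97.0 against 12.7. Foxp2 was lower in the shelf, at -1.94 ± 0.35 (SE), and so was Foxp1, at -0.39 ± 0.12 (SE), a call lost in 6 of 15 alternatives. For Foxp1 the sets of TPM values overlapped (50.8 to 65.6 in the shelf, 59.9 to 68.5 in the maxillary process). Cell content differed between these groups as well, and its part in these values was not tested. All 12 ectoderm markers were called higher in the shelf (median log2 fold change 7.25), against 27.1% of all genes. Of 7 red blood cell markers 6 were called lower and 0 higher (median -3.88), against 23.4% of all genes called lower.

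The remaining 3 genes depended on single libraries in that comparison. The log2 fold change of Foxd2 was 1.23 ± 0.63 (SE) and that of Foxc1 was 0.97 ± 0.51 (SE), and both were larger, and past FDR 0.05, without maxillary control 1 (2.22 and 1.68). For Foxc2 it was -0.047 ± 1.095 (SE), but -1.45 without wild type 1 and 1.44 without maxillary control 1. Over all genes tested the median log2 difference was 0.034 on normalised counts and 0.16 on log2(TPM + 1), so the TPM scale places the shelf higher by the difference of these.

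The other 36 forkhead genes show how the 8 stand in the family. For the PI3K allele 23 of them could be tested, of which 13 had values above 0 and 10 below, none passed FDR 0.05 in edgeR or DESeq2, and 2 had an unadjusted p under 0.05. Between the maxillary groups 16 could be tested, with 9 values above 0, 7 below and a median of 0.023 (-0.050 without labelled cKO 1). None of those passed FDR 0.05 in edgeR, and 4 had an unadjusted p under 0.05. DESeq2, run without the filter on low counts, tested 29 and called 1 higher and 1 lower. Between the wild-type shelf and the maxillary controls 22 were tested, of which 13 were called higher and 6 lower in the shelf, and several of their differences were larger than those of Foxd1 and Foxf2, such as 4.24 ± 0.44 (SE) for Foxq1 and 4.24 ± 0.86 (SE) for Foxl1. The 3 highest by mean TPM were Foxp4, Foxk2 and Foxm1 in the wild-type shelf (91.6, 61.0 and 51.5 TPM) and Foxp4, Foxm1 and Foxk2 in the maxillary controls (107, 96.4 and 69.3 TPM).

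Foxp4, the dimer partner of the Foxp products, was at 135, 108 and 79.7 TPM in the maxillary controls and at 356, 156 and 173 TPM in the labelled cKO libraries, without overlap. Its log2 fold change was 1.13 ± 0.35 (SE, 95% interval 0.32 to 1.94), beside 0.32 for Foxp1 and 0.011 for Foxp2. For the PI3K allele Foxp4 was higher without overlap too, at 83.0, 96.9 and 94.9 TPM in wild type and 99.6, 119 and 140.0 TPM in PdgfraPI3K/PI3K, a log2 fold change of 0.41 ± 0.13 (SE, 95% interval 0.11 to 0.70). Between the maxillary groups, Foxd3 and Foxl2 also had libraries that did not overlap and are named for that, after their values were seen. Foxd3, a neural crest and glia gene, was at -0.99 ± 0.24 (SE) there, and Foxl2, a gene of the ovary and of craniofacial mesenchyme, was at -0.77 ± 0.297 (SE). In the palatal shelf the genotypes overlapped for both, at 0.92 ± 0.32 (SE) and -0.36 ± 0.26 (SE).

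**Figure D4:**
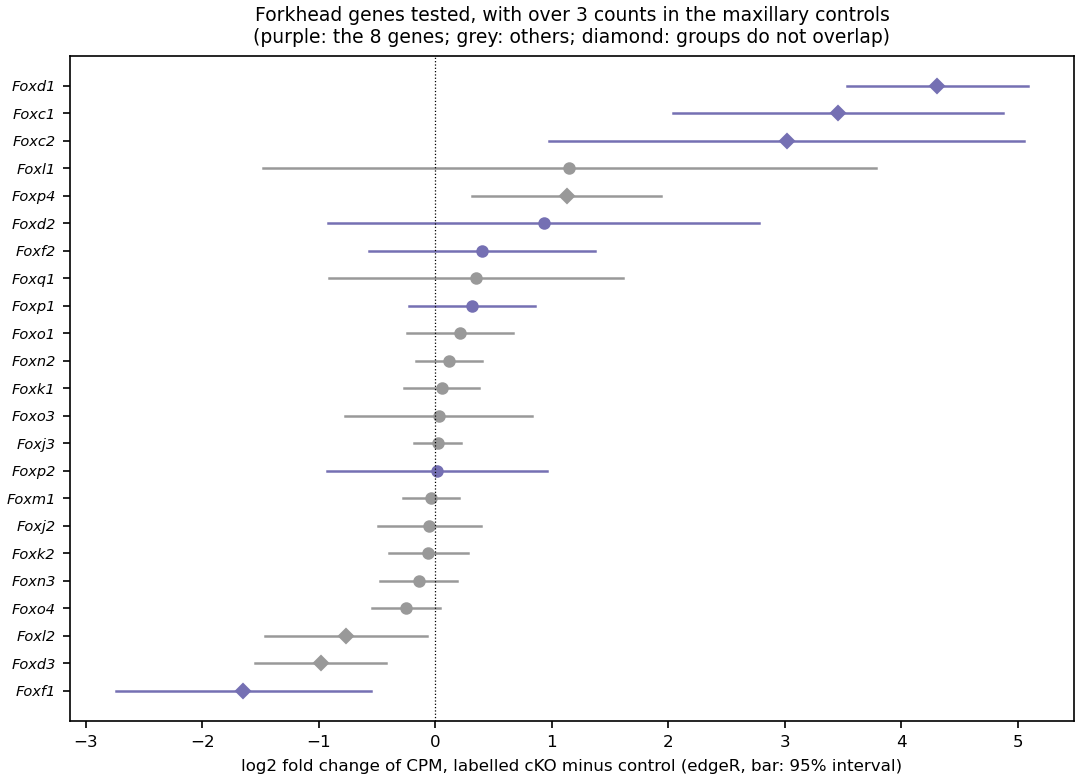
Log2 fold change of normalised counts (edgeR) with its 95% interval, labelled cKO minus control, for the forkhead genes that could be tested in the maxillary process and had over 3 counts in its controls; purple marks the 8 genes, grey the others, and diamonds those whose libraries do not overlap. Foxd1, Foxc1 and Foxc2 lie at 4.31, 3.46 and 3.02 and Foxf1 at -1.65.

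Hedgehog signalling is the pathway upstream of the Foxf genes, and its 12 listed genes include the ligand Shh, the receptor Ptch1, the signal transducer Smo, the Gli factors and the co-receptors Cdon, Boc and Gas1. Between the maxillary groups 11 were tested, 3 with values above 0 and 8 below, with a median of -0.050 (0.029 without labelled cKO 1). None passed FDR 0.05 in edgeR, 6 had an unadjusted p under 0.05, and DESeq2 called 1 higher and 1 lower of 12 tested. Gli3, a repressor of the pathway, and Smo had the highest normalised counts of the list, with log2 fold changes of -0.0098 ± 0.11 (SE) and -0.015 ± 0.082 (SE). For the PI3K allele 12 were tested, 8 above 0 and 4 below, with a median of 0.050. None passed FDR 0.05 in edgeR or DESeq2, 0 had an unadjusted p under 0.05 in edgeR, and the 2 most abundant, Ptch1 and Smo, were at 0.019 ± 0.23 (SE) and -0.078 ± 0.091 (SE). Between the tissues 5 were called higher and 5 lower in the shelf. The ligand gene Shh, made in epithelium, had a mean of 14.0 TPM in the wild-type shelf and was listed at 0 in the maxillary controls, beside the ectoderm marker sums given above.

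Markers of other cells moved with the maxillary groups too, and their part in the forkhead values was not tested. All 11 endothelial markers had values above 0, with a median log2 fold change of 0.79 (0.45 without labelled cKO 1), and the labelled cKO libraries lay above the controls for 10 of them. None passed FDR 0.05 in edgeR, 11 had an unadjusted p under 0.05, and DESeq2 called 7. Of 24 facial mesenchyme markers, 6 had values above 0 and 18 below, with a median of -0.34, none past FDR 0.05 in edgeR and 11 at an unadjusted p under 0.05, while DESeq2 called 1 higher and 3 lower. Of 8 periocular markers, chosen because Foxc1, Foxc2 and Foxd1 are expressed around the eye, 7 had values above 0, with a median of 1.03 that came to -0.049 without labelled cKO 1. Among those Pou3f4, a POU-domain factor of head mesenchyme, rose by 3.26 on the log2 scale (edgeR, adjusted p = 0.00106), from a mean of 3.94 to 36.4 TPM. All 9 ectoderm markers tested had values above 0, with a median of 2.03, and summed to 1.83 to 8.45 TPM in the controls and 10.4 to 19.4 TPM in the labelled cKO libraries. None of them passed FDR 0.05 in edgeR, 6 had an unadjusted p under 0.05, and DESeq2 called 1 of 12 tested.

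The remaining marker lists also had none past FDR 0.05 in edgeR between the maxillary groups. All 7 macrophage and all 7 red blood cell markers had values above 0 (medians 0.67 and 0.49, unadjusted p under 0.05 for 2 and 0). Without labelled cKO 1 that became 6 above and 1 below 0 for macrophage markers (median 0.26) and 3 above and 4 below for red blood cell markers (median -0.027). Mandibular arch genes had a median of 0.62 over 4 tested and skeletal muscle genes one of 3.11 over 2 tested (unadjusted p under 0.05 for 1 and 1). Forebrain genes had a median of -0.31 over 4 tested, and neuron and glia genes, a list that holds Foxd3, one of -0.80 over 9 tested (unadjusted p under 0.05 for 2 and 3). Without labelled cKO 1 these 4 medians kept their sign, at 0.98 for mandibular arch, 3.05 for skeletal muscle, -0.69 for forebrain and -1.14 for neuron and glia genes. DESeq2, run without the filter on low counts, tested more genes of some lists. It called 0 of 7 macrophage, 0 of 7 red blood cell, 1 of 4 mandibular, 1 of 10 forebrain, 1 of 11 neuron and glia and 3 of 9 muscle genes. Over those 10 forebrain genes its median was 0.15, of the other sign than in edgeR.

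**Figure D5:**
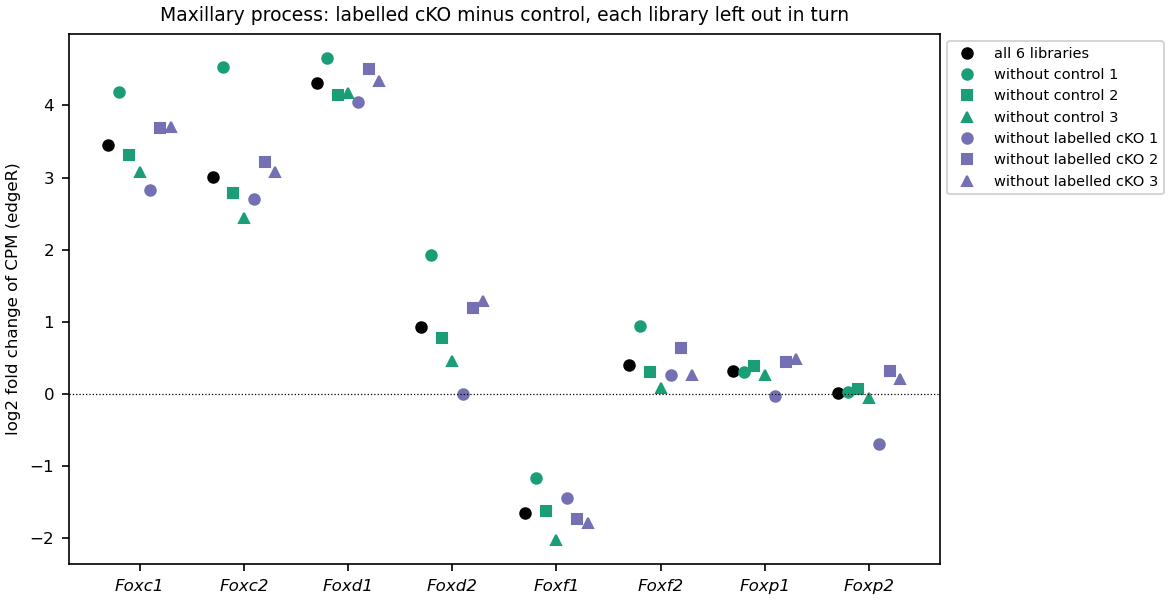
Log2 fold change of normalised counts (edgeR) in the maxillary process for the 8 genes with all 6 libraries (black) and with each library left out in turn (green circles, squares and triangles: controls 1, 2 and 3; purple: labelled cKO 1, 2 and 3). Foxc1, Foxc2 and Foxd1 were no lower than 2.44 and Foxf1 no higher than -1.17 in these fits, and Foxd2, Foxp1 and Foxp2 lay below 0 without labelled cKO 1, as did Foxp2 without control 3.

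Some neighbours on a chromosome had unlike values and some had values of the same sign. Foxf2 and Foxc1 are adjacent protein-coding genes 175.2 kb apart on chromosome 13, and in the maxillary comparison they were at 0.40 and 3.46. Gmds, 7.1 kb from Foxc1 on its other side, was higher in the labelled cKO libraries without overlap, at 0.49 ± 0.21 (SE). Mdfic, 278.7 kb from Foxp2, was higher without overlap in the PdgfraPI3K/PI3K shelf, as Foxp2 was, at 0.48 ± 0.19 (SE). In the maxillary process Mdfic was lower without overlap, at -0.63 ± 0.18 (SE), and Foxp2 was at 0.011. On chromosome 8, Foxf1 and Foxc2 lie on either side of Mthfsd, a gene of folate metabolism, which is 3.5 kb from Foxf1 and 7.8 kb from Foxc2. Going along that stretch the log2 fold changes in the maxillary process were -1.65 for Foxf1, -0.041 ± 0.12 (SE) for Mthfsd, 3.02 for Foxc2 and 1.15 ± 1.13 (SE) for Foxl1, the next forkhead gene after 9.0 kb.

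Noncoding RNAs that start next to 3 of the genes from the opposite strand had values of the same sign as their neighbour in the maxillary process. Fendrr, 1.3 kb from Foxf1, was at -1.20 ± 0.91 (SE), Foxd2os, 0.38 kb from Foxd2, at 1.19 ± 0.81 (SE), and 1700018A04Rik, 0.02 kb from Foxf2, at 1.60 ± 0.81 (SE). In each case the control and labelled cKO libraries overlapped. Whether the counting used strand is not given in the sources used here, so reads of a gene and of an overlapping or adjacent antisense gene may not be fully separate. Of the 31-base stretches in their transcripts, the 8 genes shared between 0.636% and 3.57% with another gene, of which Gm27530 and Gm27516, microRNA entries inside Foxf1 and Foxf2, account for 68 stretches each.

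Foxp1 and Foxp2 have 31 and 20 annotated transcripts, the other 6 genes 1 each, so a change in transcript use could be seen only in the Foxp genes. The effective length of a gene (estimated count divided by TPM, log2 scale, centred on the median gene of the library) moves when the mix of its long and short transcripts moves. For Foxp2 it was 0.96, 0.45 and 0.98 in wild-type shelves and 0.96, 0.85 and 0.89 in PdgfraPI3K/PI3K shelves. Wild type 2 stood apart from the other 5 libraries, and the group difference was 0.11, where the 5th and 95th percentiles of 10924 genes were -0.10 and 0.092. In the maxillary process the differences were -0.029 for Foxp2 and -0.036 for Foxp1, inside the same percentiles of all genes (-0.15 and 0.15), and the groups overlapped.

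Genes whose level followed that of a forkhead gene most closely were ranked by Pearson's r of log2(TPM + 1) over the 12 libraries, as a description without a test. The 12 points fall into 2 tissues that also differ in stage, lane and table, and what these differences add to r cannot be told apart. Foxf1 was most like Epha3, Slitrk4 and Fibin (r of 0.98 each), and Foxf2 most like Foxl1, Cldn4 and Cldn6 (0.99, 0.98 and 0.98), the claudins being genes of epithelium. Foxd1 was most like Ebf1, Thbd and Pear1 (0.94, 0.93 and 0.92), with means of 4.02, 2.10 and 5.72 TPM in the maxillary controls and 30.5, 10.6 and 22.3 TPM in the labelled cKO libraries. Foxc1 and Foxc2 were among the 3 closest of each other, at 0.92, beside Ebf2 and Tgfbi for Foxc1 (0.96 each) and Col9a1 and Pknox2 for Foxc2 (0.94 and 0.93).

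Looser likeness was found for the Foxp genes. Foxp2 was most like Ebf3, Rarb and Glipr2 (0.86, 0.81 and 0.80), and Foxp1 was most like Gm6565, Nrip1 and Snx1 (0.93, 0.90 and 0.87), of which Gm6565 was listed at 0 in 9 libraries. For Foxd2 the closest were its antisense neighbour Foxd2os, Shisa2 and Nup210 (0.96, 0.92 and 0.90). Within the 6 libraries of a tissue, the closest genes were Itih5, Zic5 and Sstr4 for Foxd1 (0.99 each), Stard8, Ezr and Fam185a for Foxc2, and Senp6, Cdk2 and Srebf1 for Foxf1. For Foxp2 in the palatal shelf they were Coro7, Tbce and Ebf3 (0.99, 0.98 and 0.98). Ranked on log2(TPM + 0.1) over the 12 libraries, 0 of the 3 names given for Foxf2 remained, 2 of 3 remained for Foxc1, Foxc2 and Foxd1 and 3 of 3 for the others. Foxc1 and Foxc2 were then no longer among the 3 closest of each other, and Thbd came before Ebf1 for Foxd1. Within the libraries of a tissue 1 of 3 remained for Foxc2 and Foxf1 and 2 of 3 for Foxd1 and Foxp2.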

How the data were processed

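Polyadenylated RNA was sequenced on a NovaSeq instrument per the labels' protocols. For each tissue the authors deposited a table of estimated counts and one of TPM values, which Salmon made per the table names, the TPM being scaled by the authors for length and depth. The submitters' processing notes list STAR 2.7.0, Salmon 1.1.0, DESeq2 1.28.1 and mm10, with no role given. The transcript index, trimming and strand setting are not given in the sources used here. Symbols and coordinates come from GENCODE M21 (GRCm38), which 53355 of 53392 identifiers matched without their version; the sources used here do not say which annotation the submitters used. Promoters are from RefSeq, with entries for 5 of the 8 genes.

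Estimated counts were rounded and fitted with edgeR 4.0.16 (R 4.3.3), each comparison on its own 6 libraries: TMM scaling, the default filter on low counts, quasi-likelihood F-test, group as the only term, p-values adjusted by Benjamini-Hochberg over the genes tested. The standard error is the log2 fold change over the root of F. Groups do not overlap where all normalised counts (CPM) of a group lie above those of the other. For the tissues, the count tables were joined by identifier. The fit was tested on simulated data. Alternatives were DESeq2-type and upper-quartile scaling, no filter, a filter of more than 1 CPM in at least 3 libraries, DESeq2 1.42.0, limma 3.58.1 on log2(TPM + 1) and log2(TPM + 0.1), all 12 libraries together, the replicate number as a block, and leaving out each library. Effective lengths were taken over genes whose count reached 50 in each library.

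The 8 genes and the lists were chosen with earlier results of these data known, and the list medians without labelled cKO 1 were added after seeing the data. Genes beyond the 8 were named by rule: other forkhead genes past FDR 0.05 in a genotype comparison or among the 3 highest in TPM per tissue, in each list up to 3 genes past FDR 0.05 or else the 2 highest in CPM, the nearest protein-coding genes and any gene overlapping or starting within 5 kb, and the 3 genes of highest r among those with a mean of at least 5 TPM in a group. Not all of these are printed, and some items are not reported here.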

Additional observations from a re-analysis of the deposited data

How the results depend on the processing

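Counts of genes past FDR 0.05 depended on the setting in the genotype comparisons. In the palatal shelf DESeq2 called 4 genes and the other alternatives 0. In the maxillary process the 12 calls became 143 without a filter, 382 with DESeq2, 105 with all 12 libraries in one fit and 40 with the replicate block (11 of the 12 among them). Leaving out a library gave 2 to 29: 6, 2 and 3 without control 1, 2 and 3, and 29, 4 and 10 without labelled cKO 1, 2 and 3. The block gave 0 calls in the palatal shelf and 6835 between the tissues. The labels do not say whether equal replicate numbers mark a shared litter or day, and so few pairs cannot decide it. Same-numbered libraries had correlations of deviations of 0.589, 0.197 and -0.228 in the palatal shelf, 0.0596, 0.109 and 0.264 in the maxillary process and -0.18, 0.0583 and -0.00671 between the tissues. Not every library correlated best with its own number. Between the tissues 4274 genes were higher and 3691 lower, against 4843 and 2175 with limma on log2(TPM + 1) and 4638 and 3144 with upper-quartile scaling.

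Foxc1 in the maxillary process also passed FDR 0.05 without a filter, with DESeq2, with all 12 libraries and with the block (edgeR or DESeq2, adjusted p from 0.00045 to 0.546 over its alternatives), and Foxf1 with DESeq2 (0.00441, up to 0.718 over its alternatives). Values near 0 changed sign, and the cause was not tested. Leaving out a library moved palatal Foxd2 between -0.22 and 0.20 and palatal Foxf1 between -0.16 and 0.44, and maxillary Foxd2 between -0.0048 and 1.92, Foxp1 between -0.026 and 0.49 and Foxp2 between -0.69 and 0.32. Maxillary Foxp2 was also at -0.0058 with upper-quartile scaling, -0.00095 without a filter, -0.19 and -0.20 with limma at pseudocounts 1 and 0.1, and -0.19 with the block. Between the tissues Foxc2 ran from -1.45 to 1.44 when a library was left out, and was at 0.028 with upper-quartile scaling, 0.22 and 0.53 with limma and 0.25 with the block. Without labelled cKO 1 the list medians of the hedgehog (0.029), other forkhead (-0.050), periocular (-0.049) and red blood cell (-0.027) genes turned sign. Of the remaining values of single genes, shares and lists, 373 kept direction and side of the threshold, 9 passed it anew, 8 lost it and 12 moved, among them pair shares taken from counts in place of TPM. Depth limits Foxc2 and Foxd1 in the maxillary controls, at 10 to 235 and 42 to 76 counts.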
